A study of Mus musculus with 3 samples.

Results

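The genes of the Bcl2 family that keep macrophages alive or drive them into apoptosis were examined in Pol_II ChIP-Seq data. The 9 members, of 22350 protein-coding genes on chromosomes 1 to 19 and X, were chosen by name: the survival genes Bcl2, Bcl2l1, Mcl1, Bcl2a1b and Bcl2a1d, the BH3-only death genes Bcl2l11, Bbc3 and Pmaip1, and the effector Bax. The cells were macrophages grown from bone marrow of female Fvb mice (Fvb/Hsd in the study's methods) in L929-conditioned medium and used on the seventh day of differentiation. One library was made from untreated cells and another from cells given 10 ng/ml LPS for 2 h (lipopolysaccharide, which coats Gram-negative bacteria and activates macrophages). Both came from chromatin pulled down with an antibody to Pol_II phosphorylated at serine 5 of its repeated tail (Ser5), the form found at promoters and early in elongation. The remaining library was input DNA from untreated cells, which was not immunoprecipitated. Input of LPS-treated cells was not analysed here, and the age and number of the mice are not given in the sources used here.

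Proteins of the Bcl2 family decide whether the outer membrane of mitochondria stays intact. The survival proteins hold the effectors Bax and Bak in check, the BH3-only proteins bind and neutralise the survival proteins or activate the effectors, and the effectors open pores that release cytochrome c and start the caspase cascade. In macrophages LPS sets off survival and death signals together, and several family genes are known targets of NF-kB, p53 or FoxO factors.

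The libraries held 7616771 tags (untreated Ser5), 6249819 tags (LPS Ser5) and 7533308 tags (input) on the chromosomes used. There was 1 library per condition. No difference could therefore be set against a spread between replicates, no test was run, and every interval in brackets is a 95% interval for counting error alone. Duplicate tags were kept and each tag was treated as independent, which can make these intervals too narrow. Levels are TPM per kb, where TPM is the number of tags scaled to a library of 1000000 tags, and a ratio is the LPS level divided by the untreated level. A gene was called higher or lower where that ratio was at least 2.0 or at most 0.5 and both Ser5 libraries together held at least 20 tags. Among all protein-coding genes with at least 20 tags, the median ratio was 0.873 over gene spans (log2 −0.20) and 0.829 within 1 kb of the TSS (log2 −0.27). The ratio was above 1 in 35.8% of them over spans and in 29.5% at the TSS. Macrophage markers had a Ser5 peak at the TSS in 8 of 8 cases in both libraries. Their tags over their pooled spans gave a level of 8.29 (untreated) and 9.14 TPM per kb (LPS). Single macrophage genes ranged from 1.94 to 105.1 (untreated) and from 0.4445 to 155.6 TPM per kb (LPS). Pooled in the same way, markers of 7 other cell types lay between 0.0998 and 0.684 TPM per kb in the Ser5 libraries. The highest single genes among them overlapped the macrophage range: the erythroid Klf1 at 2.85 (untreated) and Camp, a gene of neutrophil precursors, at 2.23 (LPS). A TSS peak lay at Kdr in both libraries and at Camp after LPS only, and the part of such cells in the results was not tested. The 5 LPS targets Tnf, Cxcl2, Il1b, Nfkbia and Il6 were 6.19 to 44.5 times higher in the library labelled LPS. Tags were 45 bases long in the untreated library, 30 bases in the LPS library and 36 bases in the input. The study's methods give the trimmed lengths of both Ser5 libraries the other way round, and the labels were followed here.

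At the TSS, Ser5 covered a wide range of levels in untreated cells. Mcl1 was highest at 71.9 TPM per kb [67.8–76.3], which placed it at percentile 99.8 of all genes. Bbc3 followed at 29.1 [26.5–31.99] and Bcl2l11 at 27.4 TPM per kb [24.8–30.1], and the intervals of these neighbours overlapped. Bcl2l1 stood at 13.1 [11.4–15.1] and Bax at 13.0 TPM per kb [11.3–14.9], again not apart beyond counting error. Bcl2 at 7.62 [6.29–9.13] and Pmaip1 at 6.24 TPM per kb [5.05–7.62] also had overlapping intervals. The copies Bcl2a1d and Bcl2a1b were listed at 0.263 [0.0715–0.672] and 0.131 TPM per kb [0.0159–0.474], in windows where few tags can be placed. The input level at the 7 measurable TSSs lay between 0.465 and 1.39 TPM per kb. In these bulk libraries, fewer cells with Pol_II on a gene and less Pol_II per cell cannot be told apart.

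**Figure D1:**
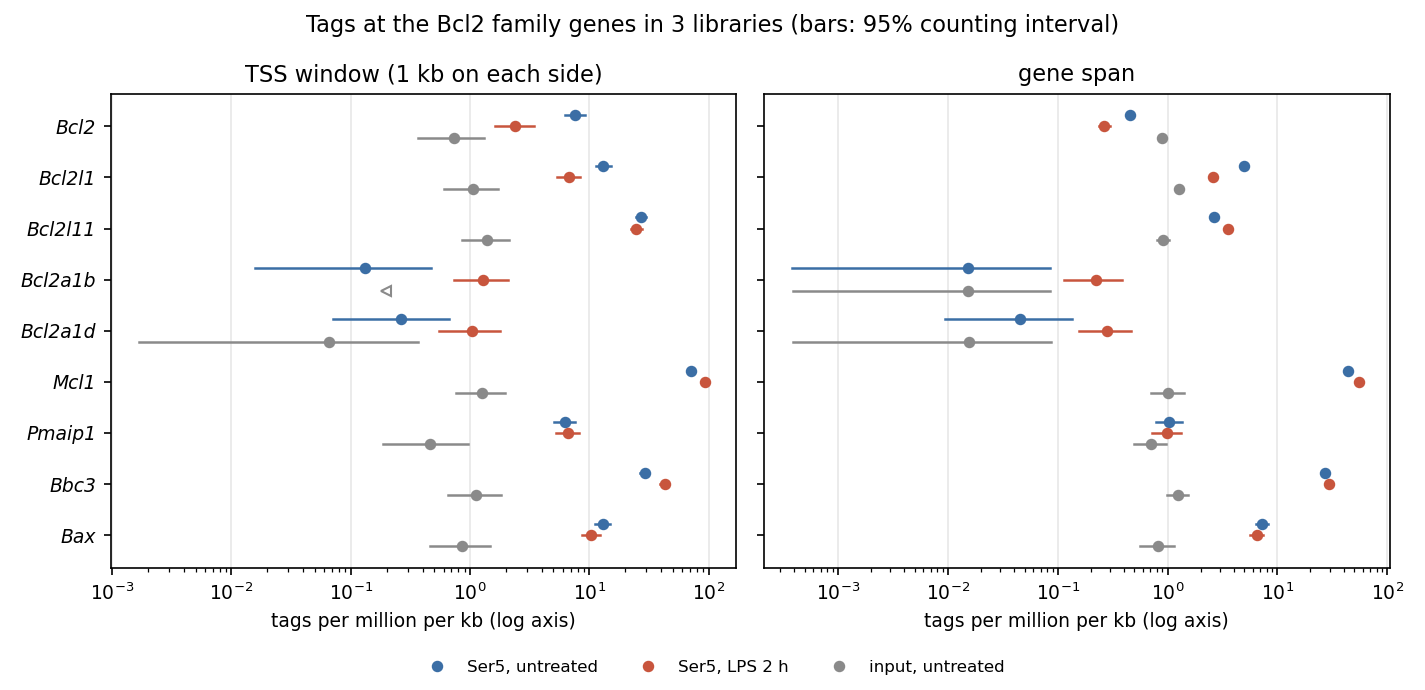
Level of each member within 1 kb of the TSS (left) and over the gene span (right), in TPM per kb on a log axis. Points are single libraries (untreated Ser5, LPS Ser5, input), bars are 95% counting intervals, and the open triangle marks the limit of 3 tags for a count of 0; Mcl1 is highest in both Ser5 libraries (71.9 and 93.4 TPM per kb at the TSS), and the Bcl2a1 copies are lowest.

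Counting gene spans and TSS windows, only Bcl2 was past the 2-fold rule after 2 h of LPS, and only at its TSS. Over gene spans, 0 of the 9 members were called higher and 0 lower, with 7 within 2-fold and 2 (Bcl2a1b and Bcl2a1d) under 20 tags. Among all 16214 genes with enough tags, 5.25% were called higher and 10.6% lower. At the TSS, 0 members were called higher and 1 lower, with 6 within 2-fold and the same 2 under 20 tags. Of 11418 genes with enough tags at the TSS, 4.37% were called higher and 13.1% lower. With 7 measurable members these counts are near the background. The members' median ratio was 0.953 over spans and 0.909 at the TSS, beside 0.873 and 0.829 for all genes. A Ser5 peak overlapped the TSS window of 7 members in untreated cells and of 9 after LPS, against 48.0% and 45.9% of all protein-coding genes. The added members were both Bcl2a1 copies.

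**Figure D2:**
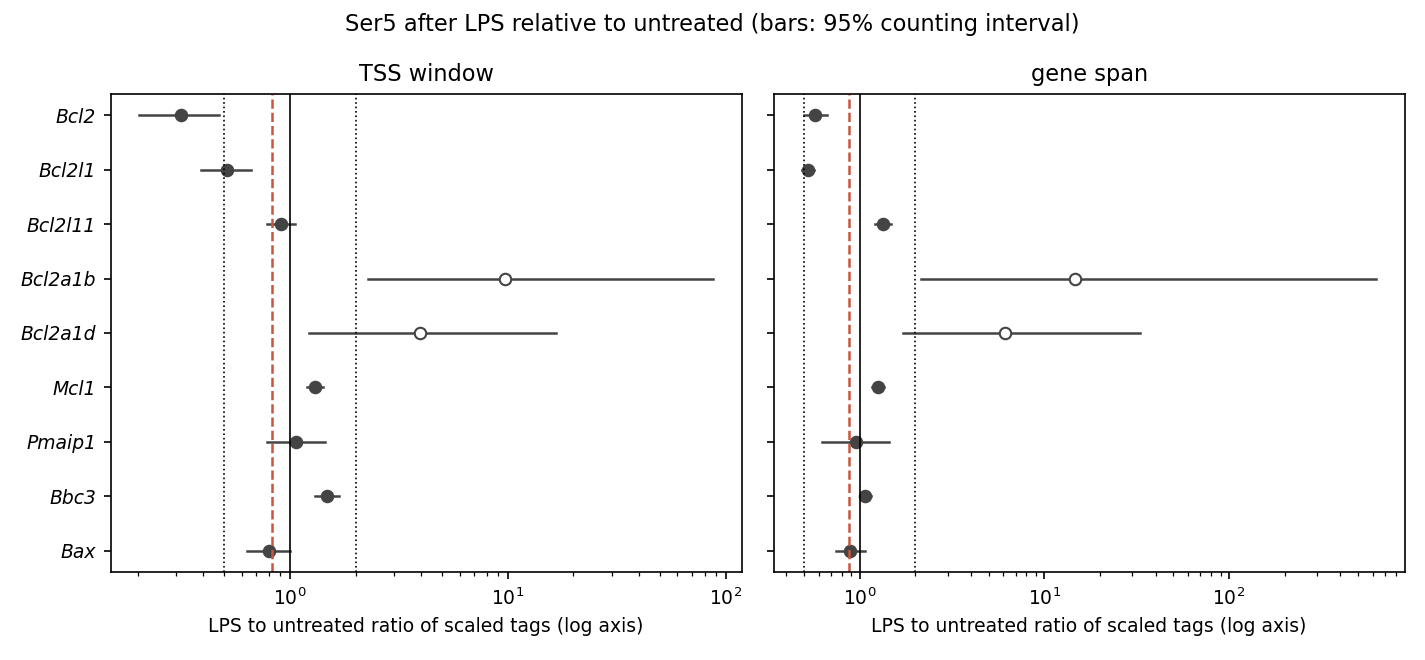
Ratio of LPS to untreated level for each member at the TSS (left) and over the gene span (right), on a log axis, with 95% counting intervals, dotted lines at 0.5 and 2.0, a dashed line at the median of all genes, and open circles for members under 20 tags. Bcl2 at the TSS (0.315) is the only filled point beyond a dotted line, and the Bcl2a1 copies lie far to the high side with wide intervals.

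Bcl2, the founding survival gene of the family, had less Ser5 at its start after LPS. The gene (ENSMUSG00000057329.6) lies on the minus strand of chromosome 1 at chr1:108434755-108610851 (mm9) and spans 176097 bp with 2 exons. The noncoding transcript D630008O14Rik on the other strand covers 18.8% of it, away from the TSS. Within 1 kb of the TSS there were 116 tags in untreated cells, 30 after LPS and 11 in the input. The LPS level of 2.40 TPM per kb [1.62–3.43] was thus 0.315 times the untreated level [0.204–0.474], at percentile 3.81 of all genes. It was still 3.29 times the input [1.60–7.27]. The peak over the TSS narrowed from 1147 to 554 bp, and its score went from 814.13 to 88.96, where the score is −10 log10 of the authors' peak p-value and also depends on library depth. The busiest 250 bp lay just before the TSS, with 38 tags in untreated cells, 10 after LPS and 0 in the input (limit set at 3 tags).

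The 250 bases upstream of the Bcl2 TSS are shown because this is the start at which the call was made. They lie on the minus strand of mm9 at chr1:108610852-108611101 and are written 5′ to 3′.
Bcl2: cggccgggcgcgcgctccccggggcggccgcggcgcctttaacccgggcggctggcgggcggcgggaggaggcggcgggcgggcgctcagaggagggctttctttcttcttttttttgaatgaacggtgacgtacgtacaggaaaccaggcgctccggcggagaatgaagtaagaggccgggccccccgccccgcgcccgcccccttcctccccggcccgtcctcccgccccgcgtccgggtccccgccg
The stretch is rich in CpG. In the window from 250 bases before to 50 bases after the TSS, GC content was 75.7%, at percentile 96.2 of 22350 promoters whose median was 55.3%.

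Over the rest of the Bcl2 gene Ser5 was scarce. The whole span held 617 tags in untreated cells, 292 after LPS and 1193 in the input, so its untreated level of 0.460 TPM per kb was 0.512 times the input and its LPS level of 0.265 was 0.295 times the input. When libraries were scaled to tags outside peaks, these values became 0.973 and 0.604. The body beyond 1 kb gave a ratio of 0.604 [0.521–0.698], and the log2 ratio of the body exceeded that of the TSS by 0.94 [0.32–1.55]. One other Ser5 peak lay within the gene in both libraries, in the intron 86867 bp from the TSS by its midpoint, with 18 untreated and 13 LPS tags. The 3 genes nearest to Bcl2 in their 4 levels (span and TSS, untreated and LPS), among 16214 genes, were Tmem64 at a distance of 0.24, Kif18a at 0.26 and Sgsm2 at 0.34 in log2 units.

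Bcl2l1, which encodes Bcl-xL and by alternative splicing the death-promoting Bcl-xS, had less Ser5 along its whole length after LPS. It lies on the minus strand of chromosome 2 at chr2:152593052-152657464 (ENSMUSG00000007659.11) and spans 64413 bp, with 9 annotated coding starts near its 5′ end. The miRNA gene AL731857.1 on the same strand covers 0.158% of Bcl2l1. The span held 2436 tags in untreated cells, 1053 after LPS and 618 in the input. The level was 4.97 TPM per kb untreated [4.77–5.17] and 2.62 after LPS [2.46–2.78], a ratio of 0.527 [0.490–0.567], just inside the 2-fold rule and at percentile 12.4 of all genes. At the TSS, 200 untreated and 84 LPS tags gave a ratio of 0.512 [0.392–0.664]. A narrower window of 500 bp on each side gave 0.423, past the rule.

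The change in Bcl2l1 was spread over the gene. When the body was divided into 4 equal parts from the TSS to the end, the ratios were 0.566 [0.489–0.653], 0.444 [0.376–0.522], 0.540 [0.461–0.631] and 0.555 [0.477–0.645]. The ratio of TSS to body density was nearly the same in both libraries, 2.82 in untreated cells and 2.74 after LPS, and the shift between them was 0.04 on the log2 scale [−0.34 to 0.42]. In untreated cells 34 separate peaks covered 38.4% of the span. After LPS 8 peaks covered 7.65% of it. The untreated library was also the deeper one, and the part of depth in these peak numbers was not tested. The peak over the TSS had a score of 1603.4 in untreated cells and 610.29 after LPS. The busiest 250 bp lay from 1000 to 1249 bp into the gene, where 4 annotated starts fall, with 85 tags in untreated cells, 46 after LPS and 7 in the input.

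The upstream sequence of Bcl2l1 differs in composition from that of Bcl2, although both starts had the lowest ratios among the measurable members. It is shown as read from mm9 on the minus strand at chr2:152657465-152657714.
Bcl2l1: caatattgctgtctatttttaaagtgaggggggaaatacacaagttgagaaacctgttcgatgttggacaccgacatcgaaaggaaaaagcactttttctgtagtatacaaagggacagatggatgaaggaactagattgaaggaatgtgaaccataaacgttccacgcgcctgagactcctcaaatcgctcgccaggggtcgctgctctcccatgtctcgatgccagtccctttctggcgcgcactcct
GC content in the 300-base window was 52.3%, at percentile 40.3, against 75.7% for Bcl2.

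Mcl1, a short-lived survival protein that cells must keep making, carried the most Ser5 of the family and slightly more of it after LPS. It lies on the plus strand of chromosome 3 at chr3:95462643-95467099 (ENSMUSG00000038612.9). The 4457 bp of the gene held 1492 tags in untreated cells, 1539 after LPS and 34 in the input. The level went from 43.95 [41.8–46.2] to 55.2 TPM per kb [52.5–58.1], a ratio of 1.26 [1.17–1.35] at percentile 81.9 of all genes. At the TSS, 1096 and 1168 tags gave 71.9 and 93.4 TPM per kb and a ratio of 1.30 [1.195–1.41]. With 1 tag kept per position and strand this ratio was 1.46, and with a window of 500 bp on each side it was 1.17.

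Ser5 at Mcl1 ran far past the annotated gene on both sides. The 5 kb after the gene end held 1479 tags in untreated cells, 1427 after LPS and 72 in the input, a ratio of 1.18 [1.09–1.27]. Peaks at the highest score the files give (3100) covered 96.6% of the span in untreated cells and 95.7% after LPS. Upstream, a region about 2.8 kb before the TSS stood out for its change: the untreated peak there held 33 untreated and 66 LPS tags, a ratio of 2.44. The peak called at that place after LPS held 50 and 93 tags, a ratio of 2.27. These regions were found as peaks in the libraries compared, so their ratios are given as a description.

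Bcl2a1, also called A1 or Bfl-1, is a survival gene of blood cells and a known NF-kB target, present in the mouse as several copies on chromosome 9. Of the members, Bcl2a1b lies on the plus strand at chr9:89094047-89102665 (ENSMUSG00000089929.1), where 98% of it is covered by the Mthfs gene on the same strand. Bcl2a1d lies on the minus strand at chr9:88618126-88626708 (ENSMUSG00000074148.1), fully covered by Gm17683 and Gm10634 on the other strand. The annotation also holds Bcl2a1a at chr9:88851738-88857254 (ENSMUSG00000074147.1), fully covered by Gm17683, and the single-exon Bcl2a1c at chr9:114239253-114239696 (ENSMUSG00000053820.4). Exons of Bcl2a1d and Bcl2a1a were 99.1% and 98.2% identical to the 816 exonic bases of Bcl2a1b.

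The upstream sequences of the copies are printed because they show why tags from them are hard to place. In the alignment, Bcl2a1d had 4 substitutions and 6 missing bases against Bcl2a1b, and Bcl2a1a had 2 substitutions. Capitals mark bases of Bcl2a1b that differ in at least 1 of the other copies, and bases of the other copies that differ from Bcl2a1b. The stretches lie in mm9 at chr9:89093797-89094046 on the plus strand, chr9:88626709-88626952 on the minus strand and chr9:88851488-88851737 on the plus strand.
Bcl2a1b: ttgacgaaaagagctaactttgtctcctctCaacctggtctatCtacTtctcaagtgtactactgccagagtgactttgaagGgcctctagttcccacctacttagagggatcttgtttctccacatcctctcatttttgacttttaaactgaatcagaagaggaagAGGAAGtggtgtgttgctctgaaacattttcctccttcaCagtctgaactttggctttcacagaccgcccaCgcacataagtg
Bcl2a1d: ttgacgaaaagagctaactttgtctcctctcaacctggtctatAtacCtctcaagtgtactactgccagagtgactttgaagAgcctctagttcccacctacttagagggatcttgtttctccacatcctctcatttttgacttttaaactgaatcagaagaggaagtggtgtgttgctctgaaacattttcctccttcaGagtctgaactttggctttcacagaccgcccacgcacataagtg
Bcl2a1a: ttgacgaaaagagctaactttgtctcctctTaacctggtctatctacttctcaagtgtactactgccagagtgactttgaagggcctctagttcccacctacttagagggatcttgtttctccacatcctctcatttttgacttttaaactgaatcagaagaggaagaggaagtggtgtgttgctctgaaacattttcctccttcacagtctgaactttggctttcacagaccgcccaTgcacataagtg
All 3 windows of 300 bases held an AP-1 motif (TGANTCA), which occurred in 6.93% of all promoters. They also held a PU.1 core motif (GAGGAAGT), which occurred in 3.12%. The windows are near-identical, so these matches are not separate observations. The NF-kB motif was searched too and was in none of them. PU.1 is the master factor of the macrophage lineage. GC content was 44 to 44.7%, below that of the other 7 members.

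Few starts near the Bcl2a1 genes can receive a tag. Within 1 kb of the TSS, a tag allowed 2 mismatches was unique in the genome at 3.25% (Bcl2a1b), 5.05% (Bcl2a1d) and 5.65% (Bcl2a1a) of starts at the untreated tag length. At the shorter LPS length these shares were 1.30%, 2.05% and 2.30%. For the other 7 members they were 91.7% or more at each length. Counting only exact matches, 30.1%, 27.6% and 35.6% of starts were unique at the untreated length and 17.7%, 16.2% and 24.8% at the LPS length. All 15229 tags over the spans of the 9 members and of Bcl2a1a and Bcl2a1c lay at starts unique by exact match. Fewer starts were thus unique at the LPS length than at the untreated length, in windows where the LPS library had more tags.

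**Figure D3:**
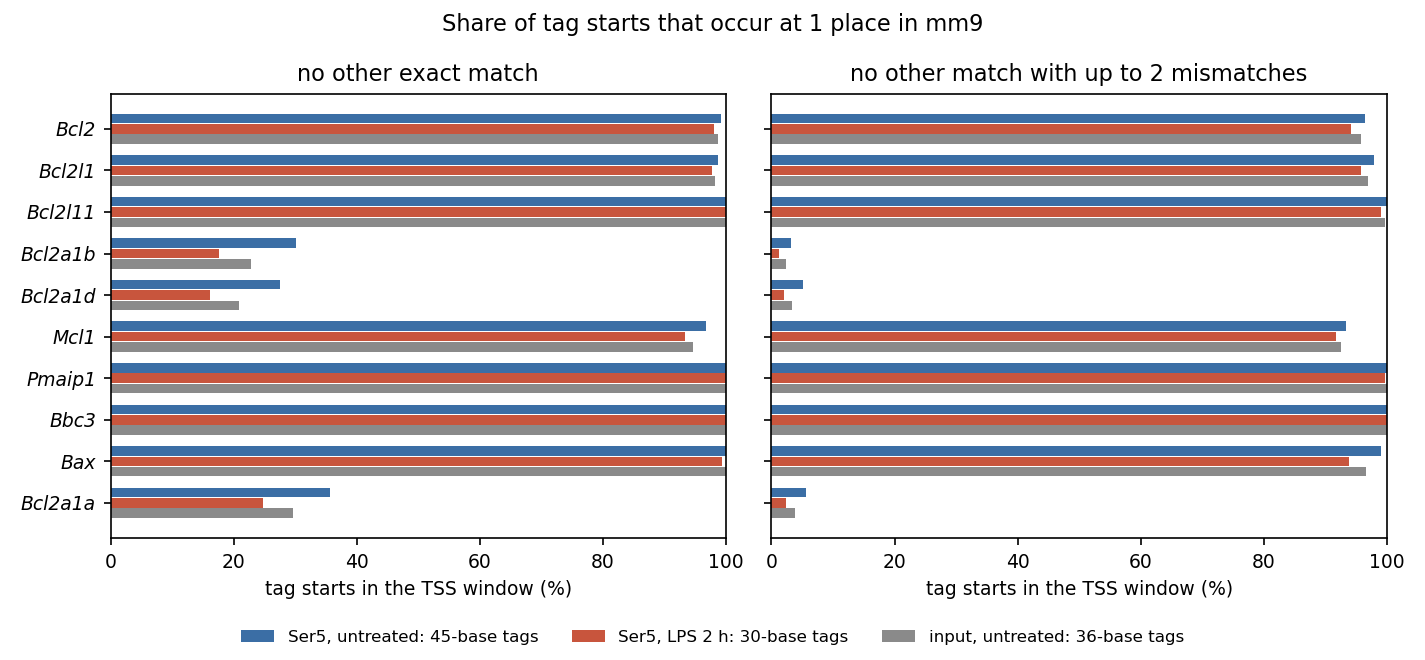
Percent of tag starts within 1 kb of the TSS that are unique in mm9 at the tag length of each library, for exact matches (left) and with up to 2 mismatches allowed (right), in the 9 members and Bcl2a1a. The Bcl2a1 genes reach at most 35.6%, and the other members 91.7% or more.

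Within these limits, all 3 longer copies had more Ser5 tags after LPS. At the Bcl2a1b TSS there were 2 tags in untreated cells, 16 after LPS and 0 in the input, a ratio of 9.75 [2.29–87.4]. The Bcl2a1d TSS held 4, 13 and 1 tags, a ratio of 3.96 [1.22–16.7]. Over the alternatives these ratios ranged from 3.66 to 16.6 for Bcl2a1b, the lowest on 4 tags within 500 bp of the TSS, and from 3.35 to 8.53 for Bcl2a1d. The Bcl2a1a TSS held 3, 28 and 1 tags, a ratio of 11.4 [3.51–58.5]. The members' own counts stay under the 20-tag rule, and Bcl2a1a is past it. Over the spans, the counts were 1, 12 and 1 for Bcl2a1b, 3, 15 and 1 for Bcl2a1d and 4, 25 and 3 for Bcl2a1a. Bcl2a1c was not higher: its TSS window held 3 tags in untreated cells, 2 after LPS and 11 in the input.

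Pooling the 3 copies avoids the question of which copy a tag belongs to. Their TSS windows together held 9 tags in untreated cells, 57 after LPS and 2 in the input, a ratio of 7.72 [3.79–17.7]. The spans together held 8, 52 and 5 tags, a ratio of 7.92 [3.74–19.3]. Where only starts unique at 30 bases with 2 mismatches were kept, the TSS windows still held 2, 17 and 0 tags. Of the LPS tags at the TSS, 10 of 16 at Bcl2a1b, 7 of 13 at Bcl2a1d and 0 of 28 at Bcl2a1a lay at such starts. The rest lay where another place in mm9 matches the reference sequence within 2 mismatches, although the study's methods keep unique matches only. All LPS tags at the Bcl2a1a TSS were of this kind, and how they passed that rule was not tested. Since mm9 comes from another strain than these mice, a tag of 1 copy and a strain variant of another copy cannot be told apart. Per kb of starts unique by exact match, the LPS level at the TSS was 7.23 TPM at Bcl2a1b, 6.42 at Bcl2a1d and 9.05 at Bcl2a1a. Bcl2l1 had 6.88. On this scale the input was 0, 0.317 and 0.224 at the copies and 1.08 at Bcl2l1, so copies and Bcl2l1 are not directly comparable. With starts unique at 2 mismatches the LPS level of the copies was 61.5, 27.3 and 0, so it depends on the rule.

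The tags of the copies lay in clumps. At Bcl2a1b, 11 of the 16 LPS tags fell between −1000 and −751 bp of the TSS. At Bcl2a1d, 9 of 13 fell in the 250 bp before it. At Bcl2a1a, 23 of 28 fell in the first 250 bp of the gene. Each of these places carried a Ser5 peak after LPS and none in untreated cells, with scores of 103.86, 100.65 and 163.44. The span of Bcl2a1b is shared with Mthfs, that of Bcl2a1d with Gm17683 and Gm10634, and that of Bcl2a1a with Gm17683. Tags carry no transcript strand, so Pol_II of a copy and of a gene overlapping it cannot be told apart.

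Bcl2l11 encodes Bim, a BH3-only protein that binds all the survival proteins. Its Ser5 level was about the same at the TSS after LPS and higher along the body. It lies on the plus strand of chromosome 2 at chr2:127951774-127988283 (ENSMUSG00000027381.10). At the TSS, 417 untreated and 311 LPS tags (21 in the input) gave levels of 27.4 and 24.9 TPM per kb and a ratio of 0.909 [0.782–1.06]. This ratio ranged from 0.892 to 1.00 under other processing, so no direction is given for it. Over the body beyond 1 kb, there were 462 tags in untreated cells, 609 after LPS and 242 in the input, a ratio of 1.61 [1.42–1.82]. The log2 ratio of the body exceeded that of the TSS by 0.82 [0.55–1.10], and the ratio of TSS to body density went from 16.0 to 9.07.

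The ratio in Bcl2l11 was higher toward the end of the gene. From the TSS to the end, the ratios of the 4 equal parts of the body were 1.07 [0.869–1.32], 1.87 [1.42–2.48], 2.05 [1.57–2.70] and 2.10 [1.60–2.75]. In the last part 89 tags in untreated cells became 153 after LPS, beside 57 in the input. The 5 kb after the gene end held 37, 58 and 27 tags, a ratio of 1.91 [1.24–2.97]. Peaks in the span went from 2 in untreated cells to 9 after LPS, and 7 of the latter lay beyond 19 kb from the TSS, each with 9 to 24 LPS tags.

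Upstream of Bcl2l11 there was also more Ser5 after LPS. From 1 to 5 kb before the TSS there were 22 tags in untreated cells, 80 after LPS and 35 in the input, a ratio of 4.43 [2.74–7.46]. The LPS library had a peak about 2.4 kb before the TSS with 5 tags in untreated cells, 25 after LPS and 7 in the input. This peak lies just past the annotated end of Acoxl, the neighbouring gene. Whether these tags belong to Acoxl was not tested.

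**Figure D4:**
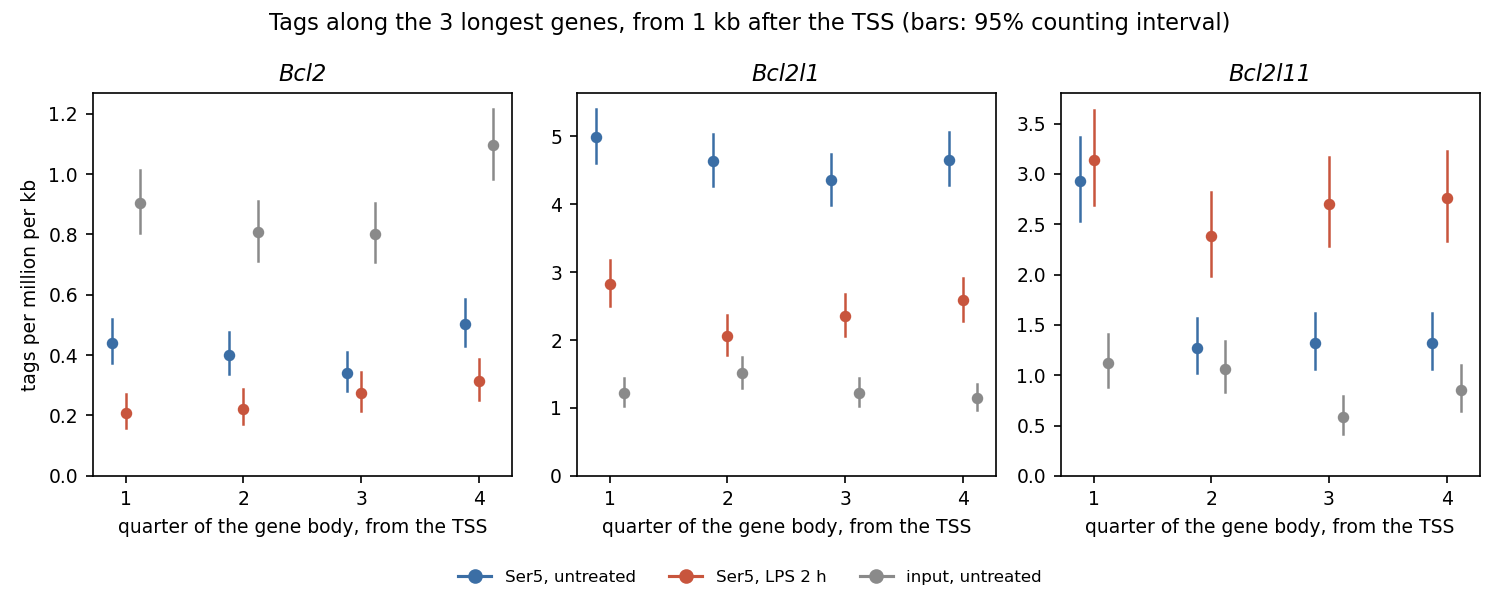
Level in TPM per kb of untreated Ser5, LPS Ser5 and input in 4 equal parts of the body of Bcl2, Bcl2l1 and Bcl2l11, numbered from the TSS to the gene end; points are single libraries and bars are 95% counting intervals. The LPS points lie below the untreated points in all parts of Bcl2l1 and above them in all parts of Bcl2l11. In the first part of Bcl2l11 the intervals overlap, and in Bcl2 both Ser5 libraries lie below the input.

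Pmaip1 encodes Noxa, a BH3-only protein that binds mainly Mcl1 and Bcl2a1. It had a sharp Ser5 peak at its start and hardly any along the gene. The gene (ENSMUSG00000024521.7) lies on the plus strand of chromosome 18 and spans 6947 bp. At the TSS there were 95 tags in untreated cells, 83 after LPS and 7 in the input, levels of 6.24 and 6.64 TPM per kb and a ratio of 1.07 [0.784–1.45]. Other processing gave TSS ratios from 0.980 to 1.15, so no direction is given. One peak lay over the TSS in each library, with scores of 729.35 and 567.88. The body beyond 1 kb held 16 tags in untreated cells, 9 after LPS and 31 in the input, fewer than the input in both Ser5 libraries. Scaling to tags outside peaks, which was not computed for the body, raised the ratio of Ser5 to input over the span from 1.47 to 2.80 (untreated) and from 1.40 to 2.87 (LPS). Between 1 and 5 kb before the TSS there were 9 tags in untreated cells, 27 in the input and 0 after LPS (limit set at 3 tags).

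Bbc3 encodes Puma, a BH3-only protein best known as a p53 target. It lies on the plus strand of chromosome 7 at chr7:16894965-16903554 (ENSMUSG00000002083.6). The span held 1782 tags in untreated cells, 1572 after LPS and 80 in the input, levels of 27.2 and 29.3 TPM per kb and a ratio of 1.08 [1.00–1.15]. Its untreated span density was at percentile 99.3 of all genes. At the TSS there were 444, 538 and 17 tags, a ratio of 1.48 [1.30–1.68]. It lay at percentile 91.4 of all genes. Its interval overlapped that of Mcl1 at the TSS, and with 1 tag per position and strand the ratios of Bbc3 and Mcl1 were 1.47 and 1.46. The log2 ratio of the body minus that of the TSS was −0.45 [−0.66 to −0.25].

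Most Ser5 at Bbc3 lay inside the gene and not at its annotated 5′ end. The busiest 250 bp ran from 4250 to 4499 bp after the TSS and held 533 tags at 236 positions in untreated cells, 442 tags at 220 positions after LPS and 3 tags in the input, a ratio of 1.01 [0.889–1.15]. The window of 500 bp on each side of the start of the noncoding transcript Bbc3-003, 3901 bp into the gene, held 849 untreated and 722 LPS tags. One peak ran through both places, 6058 bp long in the untreated library and 6411 bp in the other, with the highest score of 3100 in both. A further peak 14.3 kb upstream held 158 untreated and 120 LPS tags.

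**Figure D5:**
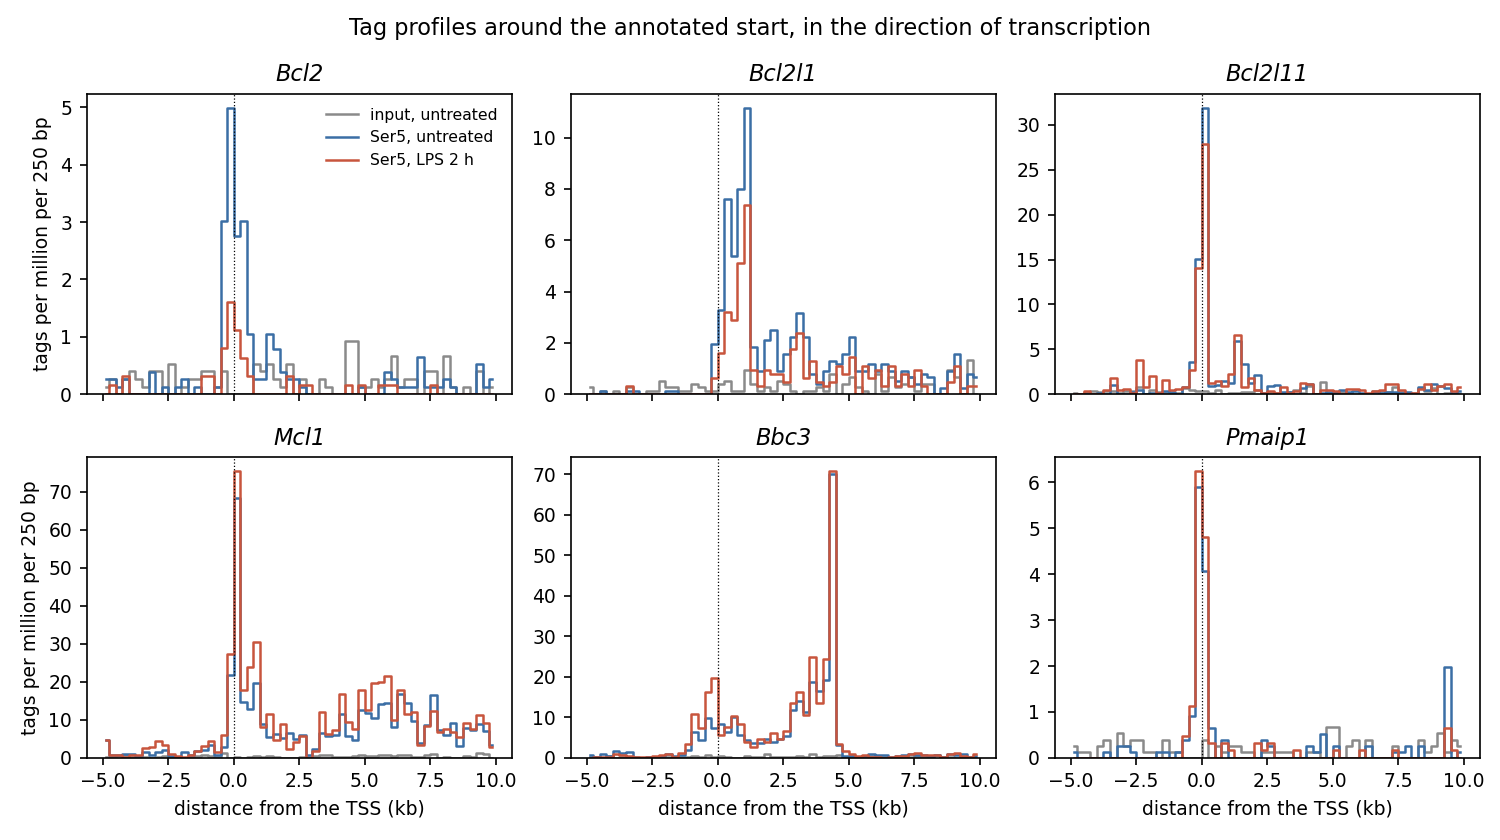
TPM in bins of 250 bp from 5 kb before to 10 kb after the TSS of 6 members, by distance from the TSS in kb, for untreated Ser5, LPS Ser5 and input; each panel has its own scale. Bbc3 has its highest bin 4250 to 4499 bp after the TSS (70.0 and 70.7 TPM), and Mcl1 in the first 250 bp of the gene (68.3 and 75.4 TPM).

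Bax encodes the pore-forming effector. It lies on the minus strand of chromosome 7 at chr7:52717065-52722268 (ENSMUSG00000003873.9). Its span held 288 tags in untreated cells, 211 after LPS and 32 in the input, levels of 7.27 and 6.49 TPM per kb and a ratio of 0.893 [0.744–1.07]. At the TSS, 198, 130 and 13 tags gave a ratio of 0.800 [0.636–1.00], at percentile 46.1 of all genes. The body beyond 1 kb gave 1.00 [0.761–1.31]. Bax thus stayed near the median of all genes. Directly after its 3′ end came a far stronger signal, with 5422 tags in untreated cells, 3833 after LPS and 71 in the input over 5 kb, where the neighbouring Ftl1 (ferritin light chain) lies. A peak of 7420 bp (untreated) or 6660 bp (LPS) runs from there over the end of Bax, so the span of Bax includes some of that signal, and the TSS window is the cleaner measure.

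The upstream sequences of Bbc3 and Bax are shown because they held searched motifs, which are in capitals: overlapping NF-kB matches in Bbc3, between −170 and −160 of the TSS, and a p53 half-site in Bax, between −201 and −192. They lie in mm9 at chr7:16894715-16894964 on the plus strand and chr7:52722269-52722518 on the minus strand.
Bbc3: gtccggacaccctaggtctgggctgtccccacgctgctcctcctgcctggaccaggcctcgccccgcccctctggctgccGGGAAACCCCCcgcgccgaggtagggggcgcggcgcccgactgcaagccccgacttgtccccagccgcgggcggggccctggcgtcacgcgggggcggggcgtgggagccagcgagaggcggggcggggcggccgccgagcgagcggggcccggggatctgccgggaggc
Bax: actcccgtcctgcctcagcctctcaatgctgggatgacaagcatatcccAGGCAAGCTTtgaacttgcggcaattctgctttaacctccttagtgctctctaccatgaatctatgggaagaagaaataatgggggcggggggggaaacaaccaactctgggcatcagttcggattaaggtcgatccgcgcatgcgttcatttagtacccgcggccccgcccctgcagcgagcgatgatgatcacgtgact
On both strands, 7 motifs were searched in the window from 250 bases before to 50 bases after each TSS. The NF-kB motif occurred in 8.89% of all promoters and the p53 half-site in 7.46%. The others were AP-1, the PU.1 core, CRE (TGACGTCA, in 2.33%), the ISRE core (in 3.79%) and the TATA box (TATAAA, in 13.4%). The Pmaip1 window held a CRE between −61 and −54 and a p53 half-site between −174 and −165. Windows of Bcl2, Bcl2l1, Bcl2l11 and Mcl1 held none of these. Such matches are short letter patterns and were not tested for binding.

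Among the other apoptosis genes, Birc3, Birc2, Cflar, Fas, Mlkl and Bcl2a1a were called higher after LPS, and Foxo3, Fadd, Bmf, Tnfrsf10b and Bcl2l10 lower. Lists of 41 genes were used, and 39 had at least 20 tags over the span. Of these 6 were called higher and 5 lower, beside 5.25% and 10.6% of all genes, and their median ratio was 0.936 beside 0.873. Of the 4 inhibitors of apoptosis, which restrain caspases and receptor signalling, Birc3 and Birc2 were called higher, and Xiap (1.74) and Birc5 (0.641) lay within 2-fold. Birc3 had 596 tags in untreated cells, 2154 after LPS and 106 in the input, a ratio of 4.41. Birc2 had 51, 123 and 98, a ratio of 2.94, with Ser5 near the input level. Cflar, which encodes the caspase-8 inhibitor c-FLIP, had 1906 untreated and 3835 LPS tags, a ratio of 2.45 over the span beside 0.710 at the TSS.

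In the same lists the death receptor Fas had a ratio of 4.02 (153 tags in untreated cells, 505 after LPS and 202 in the input). Mlkl, the executioner of necroptosis, had a ratio of 2.73 with 203 and 454 tags. Bcl2a1a, described above, had 7.62. Of the 5 called lower, Foxo3, a transcription factor that can switch on Bcl2l11 and Bbc3, went from 1204 to 393 tags, a ratio of 0.398. The Foxo3 span held 624 input tags, so its LPS level was 0.759 times the input. At the Foxo3 TSS the ratio was 0.526, within 2-fold. Fadd, the adaptor of the death receptors, went from 355 to 113 tags, a ratio of 0.388. Tnfrsf10b (0.449) and the BH3-only gene Bmf (0.340) had as many tags in the input as in untreated Ser5 or more, and Bcl2l10 (0.406) rested on 15 and 5 tags.

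By role, the other BH3-only genes had 0 of 5 called higher and 1 lower, with a median ratio of 0.975. The other effectors, Bak1 and Bok, had 0 of 2 called, with ratios of 1.11 and 0.865. The 7 genes of caspase activation, which include Apaf1 and Casp9, had none called and a median of 0.767. The death receptor pathway had 3 higher and 2 lower of 9 with enough tags. These lists are small, and 5.25% of all genes were called higher and 10.6% lower. Trp53 and Mdm2 had ratios of 1.01 and 0.936. Fasl and Bcl2a1c had too few tags.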

How the data were processed

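Ser5 ChIP-Seq of untreated and LPS-treated macrophages and input DNA of untreated cells were used, 1 library each, grouped by the sample labels. The authors trimmed the reads, aligned them to mm9 with Bowtie (2 mismatches allowed, unique matches kept) and called peaks per Ser5 library with MACS, using the input as control and p of at most 1e-05. Versions of these tools are not given in the sources used here. The deposited files give the position of every aligned tag, duplicates kept, and peaks whose deposited score is −10 log10 of the peak p-value. Positions in them were counted from 0 and were moved to count from 1: counted from 1, 4 tags would lie over assembly gaps, and counted from 0, 0 do.

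Tag 5′ ends were counted over each gene span, from 1 kb before to 1 kb after the TSS, and over flanks, for protein-coding genes of GENCODE M1 on mm9, then scaled to all tags on chromosomes 1 to 19 and X (6249819 to 7616771 tags per library). Of the Ser5 and input tags, 81.4 to 84.5% lay at distinct positions. Intervals are exact Poisson intervals for levels and exact intervals for ratios given the summed count, at 95%. Those for differences between log2 ratios are normal approximations. The limit of 3 tags given for a count of 0 is a fixed setting and not the end of such an interval. Reads carried no molecular identifiers, so intervals cover counting error only. With 1 library per condition no test was run, and a gene was called at a ratio of at least 2.0 or at most 0.5 where both Ser5 libraries together held at least 20 tags. A start was counted as unique where no other place in mm9 matched the tag exactly, or with up to 2 mismatches.

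The members and gene lists were chosen with earlier results of these data known. Named are all members, the Bcl2a1 copies, genes overlapping a member, listed genes past the 2-fold rule, and the 3 genes nearest in 4 log2 levels to each member that was called. The peaks and bins named beside them, and the other listed genes given as examples, were chosen after their values were seen. Alternatives were tags moved 75 bp, 1 tag per position and strand, scaling to tags outside peaks, other windows and tag minimums, stricter peaks (p of at most 1e-10) and starts unique at 30 bases. Levels per kb of starts unique by exact match were added after seeing the data. Python 3.11.15, numpy 2.4.6, pandas 2.3.3, scipy 1.17.1, numba 0.67.0, edlib and matplotlib 3.10.9 were used. On simulated data, 96.3% of 2000 Poisson intervals and 96.9% of ratio intervals held the true value, and uniqueness equalled a direct count at 1092 of 1092 starts.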

Additional observations from a re-analysis of the deposited data

How the results depend on the processing

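Under the alternatives run, the 1 member ratio that was called, Bcl2 at the TSS, did not change direction. Among ratios not called, some crossed 1, such as that of Pmaip1 over the span. With no minimum number of tags, 2 members (Bcl2a1b and Bcl2a1d) instead of 0 were called higher, both over the span and at the TSS. With 500 bp on each side of the TSS, 2 members (Bcl2 and Bcl2l1) instead of 1 were called lower. The Bcl2 ratio at the TSS ranged from 0.279 to 0.339, and the Bcl2l1 ratio over the span from 0.527 to 0.567. Over the span, the ratio ranged from 1.34 to 1.61 for Bcl2l11, from 0.686 to 1.13 for Pmaip1 and from 0.881 to 1.00 for Bax. Scaling to tags outside peaks multiplied every ratio by 1.08 (log2 0.11) and moved the median of all genes to 0.939 over spans and 0.892 at the TSS. It raised the ratio of Ser5 to input more, for example from 43.4 to 82.5 for untreated Mcl1. With stricter peaks (a score of at least 100) 8 members had a TSS peak after LPS, because that of Bcl2 (score 88.96) was left out. Those of Bcl2a1b (103.86) and Bcl2a1d (100.65) were just above the limit. No ratio without bases of other genes is given for Bcl2a1d and Bcl2a1b, of which other genes cover 100% and 98%. Of the listed genes, 5 or 6 were called higher and 4 or 5 lower under the alternatives, beside 6 and 5.

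The Bcl2a1 members had 17 and 18 Ser5 tags at their TSSs, in windows where few starts are unique. No paired analysis was possible because each condition has 1 library, and none could be left out.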
